A study of Danio rerio with 2 samples.

Results

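Immediate early genes were followed in single cells from whole brains of 3-dpf zebrafish larvae. The 10 members were *npas4a*, *fosab*, *fosb*, *egr1*, *egr4*, *junba*, *junbb*, *nr4a1*, *ier2a* and *btg2*, among 31323 gene symbols in the deposited tables. They were chosen by measured values of these same cells, as genes thought to be either restricted to neurons or broad. Their levels across types are therefore given as a description, with no test.

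Cell suspensions gave 2 droplet libraries (10x Genomics, 3′ ends), 1 from homozygous *rb1* mutants (allele smu2) and 1 from their siblings, whose genotype is given as wild type. Brains of both groups were dissociated with papain at 28 units per mL for 15 min at 37 °C, and how many larvae were pooled is not given in the sources used here. After filtering, 7873 mutant cells with a median of 3602 unique molecular identifiers (UMIs, each 1 mRNA molecule) and 7539 sibling cells with a median of 3319 UMIs remained. The libraries shared 15 cell barcodes, and *rb1* RNA itself was at 5.42 and 6.03 counts per 1000000 UMIs (CPM) in mutant and sibling cells, so this level is no check of the genotype labels.

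Immediate early genes are transcribed within minutes of a stimulus, without new protein synthesis, from promoters bound by factors such as CREB, SRF and MEF2. In neurons the stimulus is typically depolarization and calcium entry, and in other cells growth factors, wounding or stress. Most of their products are transcription factors that pass the signal on to later genes. Because enzymatic dissociation of a tissue can itself induce these genes, their RNA in suspended cells need not be that of the intact animal.

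Cells were sorted into types by marker genes, and 4044 mutant and 3718 sibling cells were gated as neurons. Non-neural types (microglia, neutrophils, endothelium, epidermis, mesenchyme, cartilage, muscle, red blood cells, lens and pigment cells) held 1245 mutant and 1436 sibling cells, although the labels call the cells neurons. Precursors and glia held 832 and 584 cells. Another 1682 and 1651 cells met no gate, and 70 and 150 cells were left out as mixed, carrying markers of both neurons and a non-neural type or tying between non-neural types. Neuronal RNA in the non-neural cells was measured with 8 neuronal transcripts that took no part in gating, among them *sncb*, *gng3* and *stmn1b*. By definition non-neural cells had under 3 of the pan-neuronal gate markers, so low levels of other neuronal transcripts there are partly built in. In the non-neural cells the 8 transcripts were at 1.25% to 3.00% of their neuronal level in the mutant library and at 1.18% to 1.82% in the sibling library. Each genotype had a single library and no replicate, and no test was made. Parentheses hold exact 95% intervals, which are Poisson intervals for a CPM, conditional binomial intervals for ratios and Clopper-Pearson intervals for shares of cells, and which cover counting error only.

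Of the 10 genes, 2 were neuronal, 5 were at least 2-fold higher outside neurons and 3 were broad. The neuronal genes *npas4a* and *egr4* were the members with at least 2-fold higher CPM in neurons than in the pooled non-neural types of both libraries, against 34.3% of 11702 genes tested. Both also exceeded 4-fold, as did 17.8% of those genes. The CPM of *fosb*, *egr1*, *junba*, *junbb* and *ier2a* in neurons was at most 0.5 times that of non-neural types in both libraries, against 18.3% of genes. The remaining genes, *fosab*, *nr4a1* and *btg2*, passed neither limit in both libraries and had UMIs in all 5 non-neural types with at least 30 cells in each library. The share of all genes that were broad was not taken. The median ratio of neurons to non-neural types over the 10 genes was 0.201 in the mutant library and 0.464 in that of siblings, whereas over all genes it was 1.54 and 1.61. With types weighted equally, or without mesenchyme, which held most non-neural cells, 3 genes (*egr1*, *junba* and *ier2a*) in place of 5 were at 0.5 or less in neurons. Since the genes were picked on such values, these counts describe the choice.

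**Figure D1:**
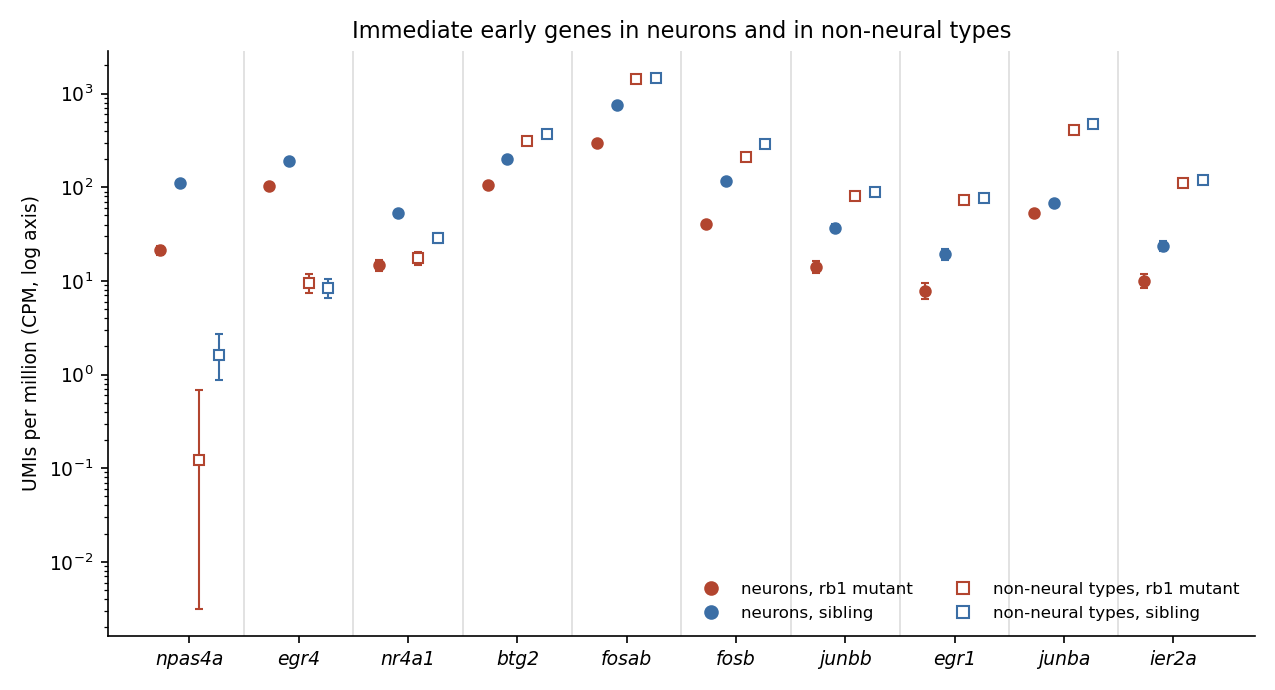
CPM of each immediate early gene (log axis) in neurons (filled circles) and pooled non-neural types (open squares) of the rb1 mutant (red) and sibling (blue) library, with exact Poisson 95% intervals. *npas4a* and *egr4* stand higher in neurons, and for the genes from *btg2* to the right the squares stand above the circles in both libraries.

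*npas4a* (ENSDARG00000055752) encodes a basic helix-loop-helix PAS transcription factor that in mammals is induced selectively by neuronal activity. It had 301 UMIs in mutant neurons, at 21.3 CPM (19.0–23.9), against a single UMI in the non-neural cells of the same library, at 0.124 CPM (0.00313–0.689). In the sibling library it had 1223 UMIs in neurons, at 110 CPM (103.9–116), against 14 UMIs in non-neural cells, at 1.60 CPM (0.873–2.68). The ratio was 172 (30.7–6832) in the mutant library and 68.9 (40.9–126) in that of siblings. The non-neural level was 0.580% and 1.45% of the neuronal one, under the range of the 8 neuronal transcripts in the mutant cells and within it in the sibling cells. Precursors and glia had 4 mutant and 7 sibling UMIs, at 0.839 and 1.74 CPM. Whether the UMIs outside neurons were carried-over neuronal RNA was not tested. Neurons held 94.1% of all *npas4a* UMIs of mutant cells and 93.0% of those of sibling cells.

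Within neurons *npas4a* differed widely between types. Of types with at least 30 cells in both libraries, GABAergic neurons with *dlx* genes, a forebrain signature, were highest at 170 CPM (109–254) in 39 mutant cells and 525 CPM (426–641) in 51 sibling cells. In the mutant library 1 of these cells held 10 of the 24 UMIs, and the interval does not cover such clumping. Glutamatergic neurons came next with 67.5 CPM (56.3–80.3) in mutant and 222 CPM (203–242) in sibling cells. GABAergic neurons without *dlx* genes had 39.0 (25.2–57.5) and 213 CPM (183–247), and in the sibling library these 2 neighbours did not differ beyond their intervals. The output neurons and light-sensing cells of the retina were at the other end. Retinal ganglion cells had 3.30 (0.40–11.9) and 33.6 CPM (18.4–56.5), and bipolar cells had 1 and 2 UMIs. Photoreceptors had 0 UMIs in the mutant library, which allows up to 1.92 CPM, and 2 UMIs in the sibling library. Cells gated as amacrine, the inhibitory interneurons of the retina, had 12.0 (7.30–18.5) and 72.9 CPM (58.4–89.9). Their interval overlapped that of retinal ganglion cells in the mutant library but not in that of siblings. The amacrine gate also counts *gad1b* and *slc32a1*, which mark GABAergic neurons too, so it need not hold retinal cells only.

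*egr4* (ENSDARG00000077799) encodes a zinc finger transcription factor of the early growth response family. It was at 103.8 CPM (98.6–109) in neurons and 9.40 CPM (7.40–11.8) in non-neural cells of the mutant library, a ratio of 11.0 (8.77–14.1). In the sibling library it was at 190 CPM (182–198) in neurons and 8.44 CPM (6.63–10.6) in non-neural cells, a ratio of 22.5 (17.8–28.8). It was found in every neuronal type of both libraries, from 58.3 CPM (46.9–71.5) in mutant and 52.2 CPM (40.1–66.8) in sibling photoreceptors to 447 CPM (344–572) and 1386 CPM (1222–1567) in GABAergic neurons with *dlx* genes. Bipolar cells, nearly without *npas4a*, had 81.8 CPM (63.2–104.3) and 137 CPM (108–172). Outside neurons, 60 of 76 mutant and 58 of 74 sibling *egr4* UMIs were in mesenchyme, where 25 and 20 cells carried them and single cells held up to 12 and 23.

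*nr4a1* (ENSDARG00000000796), an orphan nuclear receptor, was the member nearest to equal in neurons and non-neural cells. It was at 14.7 CPM (12.8–16.9) in neurons and 17.4 CPM (14.7–20.6) in non-neural cells of the mutant library, and at 52.6 CPM (48.4–57.0) and 28.8 CPM (25.3–32.5) in the sibling library. The ratio of neurons to non-neural types was thus 0.845 (0.679–1.05) in the mutant library and 1.83 (1.58–2.13) in that of siblings. Without mesenchyme these ratios were 0.465 and 0.958, so the side of 1 in the sibling library rested on mesenchyme. Its highest level was in microglia and macrophages, the immune cells of the brain, with 303 CPM (207–427) from 19 mutant cells and 413 CPM (336–501) from 32 sibling cells. Among non-neural types endothelium followed with 101 CPM (57.7–164) and 97.3 CPM (62.3–145), whereas mesenchyme had 8.90 (6.49–11.9) and 9.99 CPM (7.44–13.1). Among neurons, the GABAergic type with *dlx* genes had 42.6 CPM (15.6–92.7) and 157 CPM (105–226).

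*btg2* (ENSDARG00000020298) belongs to an antiproliferative family whose members bind the CCR4-NOT deadenylase. It was at 106 CPM (101–111) in neurons and 313 CPM (301–325) in non-neural cells of the mutant library, and at 200 CPM (191–208) and 370 CPM (358–383) in the sibling library. Between types with at least 30 cells in both libraries it ranged between 68.5 and 458 CPM in mutant and between 87.0 and 612 CPM in sibling cells, and photoreceptors were lowest in both libraries. The cycling precursors had 121 CPM (109–135) and 127 CPM (113–142), beside the 106 and 200 CPM of neurons.

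*fosab* (ENSDARG00000031683), the zebrafish counterpart of c-Fos and a subunit of the AP-1 factor, had 22969 UMIs in mutant and 28383 in sibling cells. Neurons held 18.5% of these UMIs in the mutant library and 29.7% in that of siblings. It was at 300 CPM (291–309) in neurons and 1439 CPM (1413–1466) in non-neural cells of the mutant library, and at 758 CPM (742–774) and 1466 CPM (1440–1491) in the sibling library. The ratios were 0.209 (0.201–0.216) and 0.517 (0.503–0.531), and it was this second value, just over 0.5, that kept *fosab* among the broad genes. *btg2* at 0.539 in the sibling library was next outside that limit, and *junbb* at 0.412 was next inside it.

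The highest *fosab* level of any type with at least 30 cells was in radial glia, the neural stem cells of the fish brain, with 3020 CPM (2923–3120) in mutant and 3264 CPM (3144–3388) in sibling cells. The radial glia gate counts *fabp7a*, which the paper also lists for Müller glia of the retina, so it need not hold brain cells only. Mesenchyme had 1716 CPM (1680–1752) and 1895 CPM (1858–1933). Lens cells had 1474 and 1435 CPM, but these UMIs came from 14 of 40 mutant and 25 of 40 sibling cells. At the low end, bipolar cells had 62.9 CPM (46.7–83.0) in mutant and 184 CPM (150–223) in sibling cells. GABAergic neurons with *dlx* genes, at 1051 CPM (888–1234) in the mutant library and 2898 CPM (2657–3154) in that of siblings, had in the sibling library a higher level than any non-neural type there. A single neuron held as many as 122 UMIs in the mutant library and 105 in that of siblings. Red blood cells, which should carry little of it, had 3 and 4 *fosab* UMIs, at 13.96 CPM (2.88–40.8) and 13.0 CPM (3.55–33.4).

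As pooled classes, non-neural types were further above neurons for the other AP-1 genes among the members, *fosb*, *junba* and *junbb*. In the mutant library the intervals of the ratios of *fosb*, 0.194 (0.176–0.213), and *junbb*, 0.176 (0.150–0.207), overlapped that of *fosab*. *fosb* (ENSDARG00000055751) was at 40.6 CPM (37.3–44.0) in neurons and 210 CPM (200–220) in non-neural cells of the mutant library, and at 116 CPM (110–123) and 293 CPM (282–305) in the sibling library. Of types with at least 30 cells in both libraries, it was highest in sibling GABAergic neurons with *dlx* genes, at 487 CPM, and in mutant epidermis, at 496 CPM. *junba* (ENSDARG00000074378) and *junbb* (ENSDARG00000104773) are the fish copies of JunB, a partner of Fos proteins. *junba* was at 53.2 CPM (49.5–57.2) in neurons and 411 CPM (397–425) in non-neural cells of the mutant library, and at 67.7 CPM (63.0–72.7) and 473 CPM (458–487) in the sibling library, ratios of 0.130 and 0.143. *junbb* was at 14.2 and 80.4 CPM in these classes of the mutant library, and at 36.4 and 88.4 CPM in those of the sibling library. Endothelium, with 24 mutant and 33 sibling cells, had 802 CPM (668–954) and 989 CPM (869–1121) of *junba*, above the mesenchyme at 459 and 554 CPM.

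*egr1* (ENSDARG00000037421), another early growth response factor, and *ier2a* (ENSDARG00000099195), a nuclear protein of the immediate early response family, had the lowest ratios together with *junba*. *egr1* was at 7.86 CPM (6.47–9.46) in neurons and 73.7 CPM (67.9–79.8) in non-neural cells of the mutant library, and at 19.2 CPM (16.8–22) and 76.9 CPM (71.2–82.9) in the sibling library. *ier2a* was at 9.98 CPM (8.404–11.8) and 111 CPM (103.9–119) in the mutant library, and at 23.4 CPM (20.6–26.4) and 120 CPM (113–128) in the sibling library. Of types with at least 30 cells in both libraries, *egr1* was highest in sibling GABAergic neurons with *dlx* genes, at 195 CPM from 36 UMIs, and in mutant epidermis, at 155 CPM. *egr1* and *egr4*, of the same family, thus lay on opposite sides as pooled classes, though both were highest in this neuronal type of the sibling library. Over the 34 type and library points the correlation of their log2(CPM + 10) was −0.26. The types share a library and its depth, so this is a description only.

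**Figure D2:**
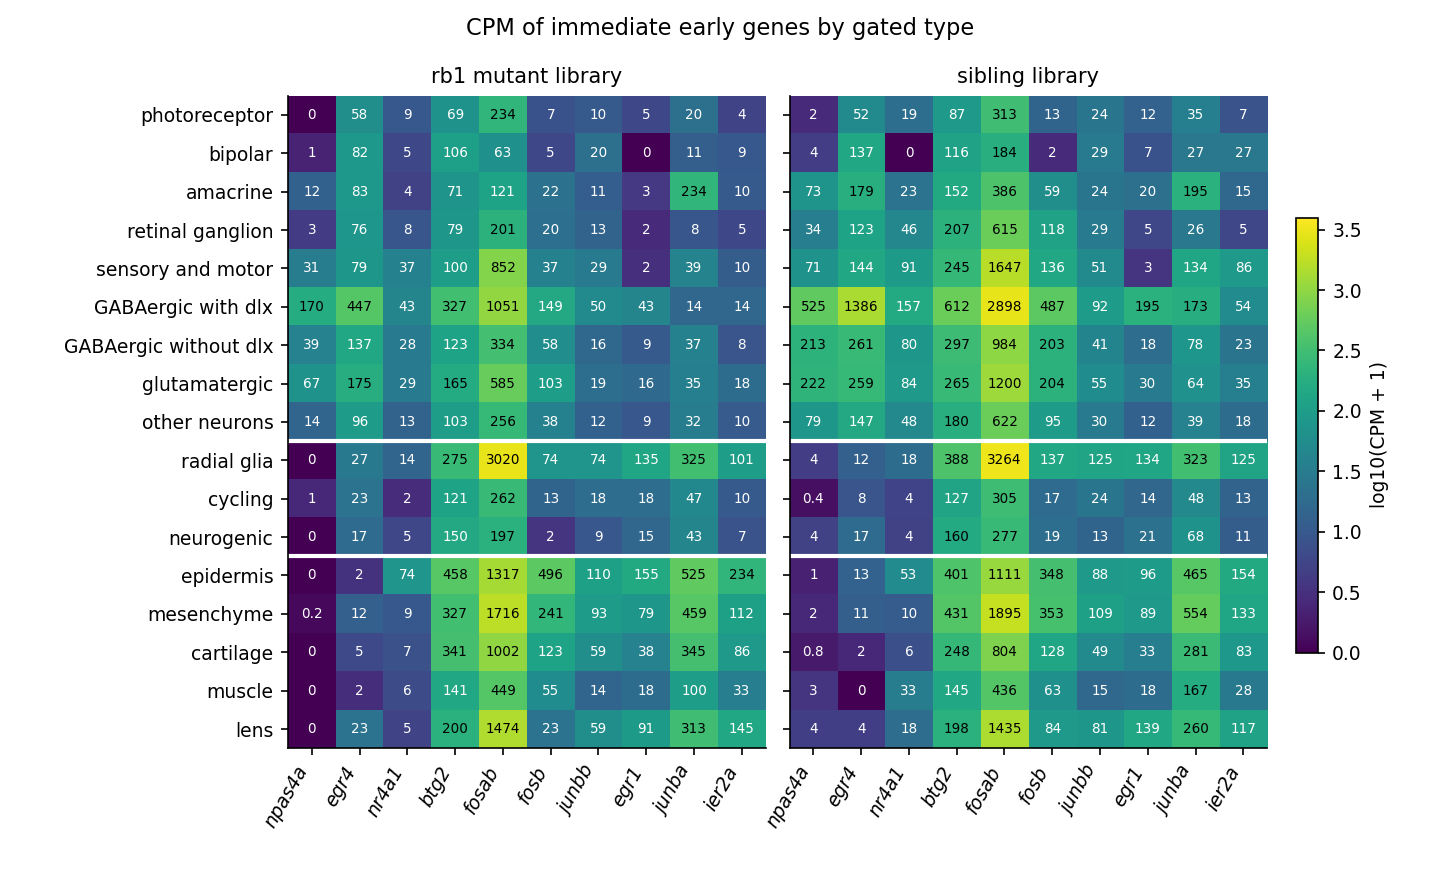
CPM of each immediate early gene (columns) in each type with at least 30 cells in both libraries (rows), rb1 mutant library at the left and sibling library at the right, with the CPM written in each cell and colour as log10(CPM + 1). White lines part neuronal types, precursors and glia, and non-neural types. *npas4a* is near 0 below the upper line, and *fosab* is at 3020 and 3264 CPM in radial glia.

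Of the neuronal types, amacrine cells had the highest *junba* level in both libraries. They had 234 CPM (211–258) in the mutant library and 195 CPM (171–222) in that of siblings, against 53.2 and 67.7 CPM in all neurons, and so held 391 of the 752 neuronal UMIs in the mutant library and 233 of 753 in that of siblings. These came from 78 of 328 mutant and 46 of 285 sibling amacrine cells, of which 24 and 13 had at least 5 UMIs and single cells had up to 51 and 28. The shares of amacrine cells with *fosab* overlapped in their intervals between those with and without *junba*. In the mutant library, 20.5% (12.2–31.2) of them had a *fosab* UMI, against 18.4% (13.8–23.8) of the amacrine cells without *junba*. In the sibling library these shares were 34.8% (21.4–50.2) and 35.1% (29.1–41.6). The shares with *egr4*, *fosb* and *junbb* were higher in cells with *junba* in both libraries, with overlapping intervals. *egr4* was at 154 CPM in mutant and 374 CPM in sibling cells with *junba*, against 57.3 and 134 CPM in those without it. In the mutant library 1 amacrine cell held 43 *egr4* UMIs. The cells with *junba* had medians of 5288 and 4612 UMIs, and those without it had 4564 and 3967. *pax10*, a marker of the amacrine gate, was in 74.4% (63.2–83.6) of mutant cells with *junba* and 54.4% (48.0–60.7) of those without it. In the sibling library these shares were 67.4% (52.0–80.5) and 37.2% (31.1–43.7). In the sibling library the GABAergic neurons with *dlx* genes, at 173 CPM (119–245), overlapped them, and sensory and motor neurons had 134 CPM (100.3–175), whereas in the mutant library these types had 14.2 (1.72–51.3) and 39.5 CPM (23.8–61.7). The amacrine cells were singled out after their values were seen.

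The shares of cells with a UMI were compared after each cell had been thinned to 1000 UMIs, which left out 528 mutant and 563 sibling neurons and 40 and 48 non-neural cells with fewer UMIs. *npas4a* was found in 2.19% (1.73–2.73) of mutant and 7.83% (6.92–8.82) of sibling neurons. In the non-neural cells it was found in 0 of 1205 mutant cells and in 1 of 1388 sibling cells. Before thinning, these shares were 3.98% and 13.2% of neurons, at median depths of 3322 and 2886 UMIs, and 0.0803% and 0.905% of non-neural cells, at median depths of 5717 and 5259. *egr4* was found in 8.76% (7.85–9.74) and 13.7% (12.5–14.9) of neurons, and in 1.16% (0.637–1.94) and 0.576% (0.249–1.13) of non-neural cells. *fosab* was found in 16.5% (15.3–17.8) and 29.7% (28.1–31.4) of neurons, and in 55.9% (53.0–58.7) and 59.4% (56.7–62.0) of non-neural cells. In red blood cells, with median depths of 16440 and 12978 UMIs, *fosab* was found after thinning in 0 of 14 mutant and 1 of 24 sibling cells. At this depth 8 of the 10 genes were found in at least 1% of neurons of both libraries, the exceptions being *egr1* and *ier2a* with 0.626% and 0.967% of mutant neurons. The share of all genes past this limit was not taken, so the count describes the members only.

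Some cells carried several of these genes. At 1000 UMIs, 3.67% (3.07–4.34) of mutant and 10.5% (9.47–11.6) of sibling neurons had UMIs of 3 or more members, against 22.5% (20.2–24.95) and 26.2% (23.9–28.6) of non-neural cells. In the mutant library the share was 13.2% (4.41–28.1) of GABAergic neurons with *dlx* genes and 9.32% (6.86–12.3) of glutamatergic neurons. In the sibling library these shares were 48.0% (33.7–62.6) and 20.3% (17.1–23.8). In photoreceptors it was 2 of 354 mutant and 2 of 293 sibling cells. Radial glia had 16.9% (12.4–22.4) and 27.3% (20.2–35.3), and mesenchyme 24.8% (21.9–27.9) and 29.7% (26.8–32.8).

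**Figure D3:**
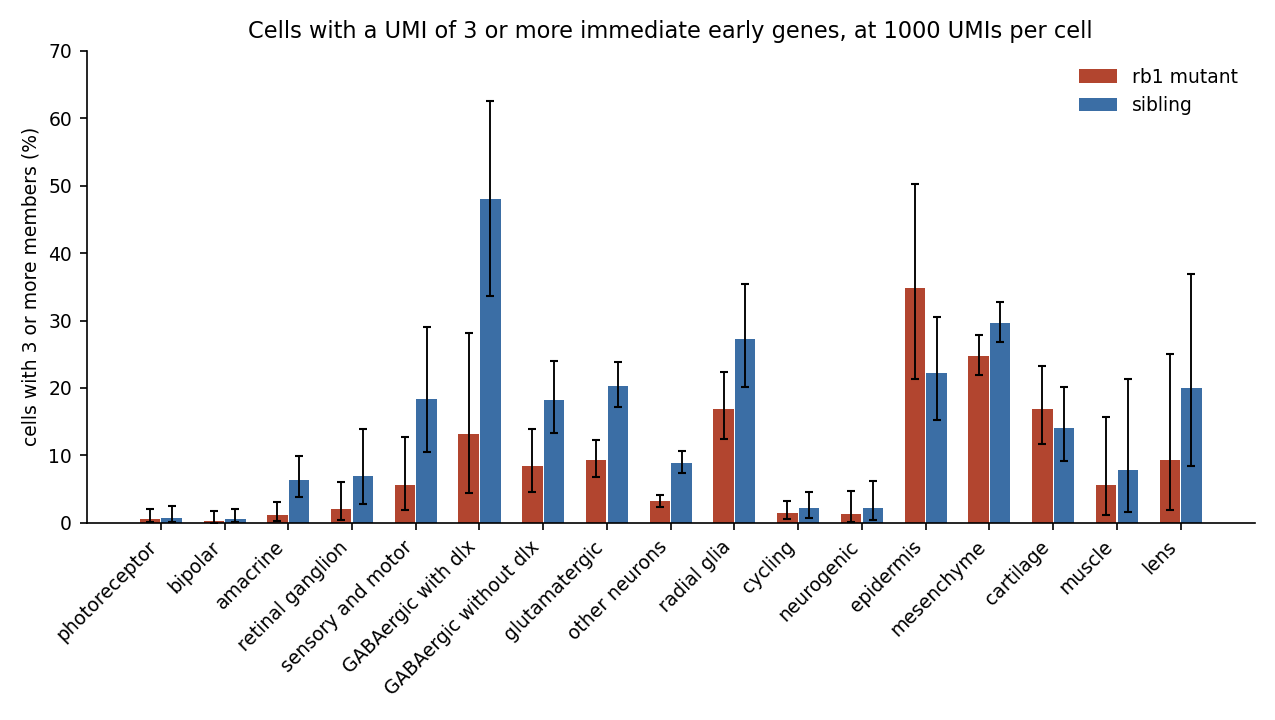
Percentage of cells with a UMI of 3 or more of the 10 immediate early genes, each cell thinned to 1000 UMIs, by type in the rb1 mutant (red) and sibling (blue) library, with Clopper-Pearson 95% intervals. GABAergic neurons with *dlx* genes reach 13.2% in the mutant library and 48.0% in that of siblings, while photoreceptors and bipolar cells are under 1%.

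The genes found in the same cells were then compared within neurons and within mesenchyme, with no test between these classes. Of the neurons with *npas4a*, 70.13% of 77 mutant and 71.7% of 247 sibling cells also had *fosab*, against 15.3% and 26.2% of the neurons without it. *fosb* was found in 44.2% and 34.01% of the neurons with *npas4a*, against 2.56% and 5.78% of those without it. *egr4* was found in 32.5% and 32.4%, against 8.23% and 12.1%. Within glutamatergic neurons alone, 72.7% of 33 mutant and 77.3% of 97 sibling cells with *npas4a* had *fosab*, against 22.1% and 37.0% of those without it. In sibling GABAergic neurons without *dlx* genes the shares with *fosab* were closer, 53.8% (37.2–69.9) of 39 cells with *npas4a* and 35.0% (28.1–42.4) of 180 without it. For *egr4* they were 23.1% (11.1–39.3) and 18.9% (13.45–25.4), also overlapping, and for *fosb* 35.9% (21.2–52.8) and 12.2% (7.82–17.9). In mesenchyme *npas4a* was in 0 mutant cells and 1 sibling cell at this depth, and *junba* was found in 42.1% of the 504 mutant and 38.4% of the 633 sibling cells with *fosab*, against 14.4% and 21.0% of cells without *fosab*. In neurons *junba* was found in 4.66% and 7.25% of the cells with *fosab*, against 2.62% and 2.66% of those without it.

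Heat-shock RNA was abundant in neurons and non-neural cells alike. The *hsp70* copies *hsp70.1*, *hsp70.2*, *hsp70.3* and *hsp70l*, which are near identical and were summed, made up 24456 and 30109 CPM of mutant and sibling neurons and 26283 and 29917 CPM of their non-neural cells. Neurons with 3 or more members had 29488 CPM in the mutant library and 32607 CPM in that of siblings, against 24356 and 29976 CPM in the other neurons. For non-neural cells these values were 32231 and 35135 CPM, against 24871 and 28386 CPM. Of 13 heat-shock and stress genes with enough UMIs, 0 were neuron-restricted, 10 were broad and 3 (*hspb1*, *hsp90aa1.1* and *bag3*) were at most 0.5 times as high in neurons as in non-neural types of both libraries, with median ratios of 0.914 and 1.01. Of all genes, 17.8% were at least 4-fold higher in neurons of both libraries and 18.3% were at most 0.5 times as high. The share that were broad was not taken. Red blood cells had 7537 and 7718 CPM of *hsp70* RNA. The part of dissociation in the levels of the early genes was not tested.

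The 10 genes were then compared between the genotypes. In neurons all 10 had a lower CPM in the *rb1* mutant than in the sibling library, and for 7 of them (*npas4a*, *fosab*, *fosb*, *egr1*, *junbb*, *nr4a1* and *ier2a*) it was at most 0.5 times as high, against 9.11% of 11847 genes tested. Of those genes, 69.0% were below 1. None was at least 2-fold higher, as were 4.5% of genes. The median ratio was 0.402, whereas the median over all genes was 0.850. The ratio was 0.194 (0.170–0.220) for *npas4a*, 0.280 (0.238–0.328) for *nr4a1*, 0.350 (0.316–0.386) for *fosb* and 0.396 (0.382–0.411) for *fosab*. *ier2a* at 0.427 (0.345–0.526) was next inside the limit of 0.5, and *btg2* at 0.531 (0.497–0.567) and *egr4* at 0.546 (0.511–0.584) were next outside it. *junba* had the ratio nearest to 1, 0.786 (0.710–0.871). Amacrine cells, with a ratio of 1.198 (1.02–1.41), held 391 of its 752 mutant and 233 of its 753 sibling UMIs in neurons. In the other neuronal types with at least 50 *junba* UMIs over both libraries the ratio was between 0.295 and 0.827. The share of neurons with a UMI at 1000 UMIs per cell was also lower in the mutant library for all 10, as for *fosb* with 3.47% and 7.99% and *nr4a1* with 1.59% and 4.47% of mutant and sibling neurons. With 1 library per genotype, genotype and preparation cannot be told apart.

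Outside neurons the genotypes were closer. In non-neural cells 9 of the 10 genes could be compared, *npas4a* having too few UMIs. None was at least 2-fold higher in the mutant (0.986% of 10239 genes) and none was at most 0.5 times as high (3.56% of genes). The median ratio was 0.909, against 0.970 over all genes, and *fosab* was at 0.982 (0.958–1.01). The lowest was *nr4a1* at 0.606 (0.490–0.748). In precursors and glia *fosab* was at 955 CPM in the mutant library and 931 CPM in that of siblings, a pooled ratio of 1.03 (0.982–1.07). Within types with at least 30 cells it was lower in the mutant, at 0.925 (0.880–0.972) in radial glia, 0.858 (0.773–0.953) in cycling and 0.714 (0.577–0.881) in neurogenic cells. In the oligodendrocyte lineage, with 7 mutant and 9 sibling cells, the *fosab* ratio was 1.14 (0.670–1.94). Radial glia, the type highest in *fosab*, were 255 of the 832 mutant and 155 of the 584 sibling cells of this class. Of the 9 members compared in precursors and glia, 5 were below 1 and 4 above, where 49.1% of genes were below 1. Their median was 0.918, against 1.01 over all genes. Intervals below 1 were those of *fosb* at 0.666 (0.528–0.839), *junbb* at 0.702 (0.559–0.880) and *btg2* at 0.890 (0.805–0.984). In this class *egr4* went the other way, with 22.7 CPM (18.6–27.4) against 10.5 CPM (7.54–14.1), a ratio of 2.17 (1.503–3.17). Of its UMIs there, 61 of 108 mutant and 19 of 42 sibling ones were in cycling cells. Of the 8 neuronal transcripts kept out of the gates, 7 were also higher in mutant precursors and glia, with a median ratio of 1.47 over the 8, against 1.01 over all genes, and their part in the *egr4* value was not tested.

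**Figure D4:**
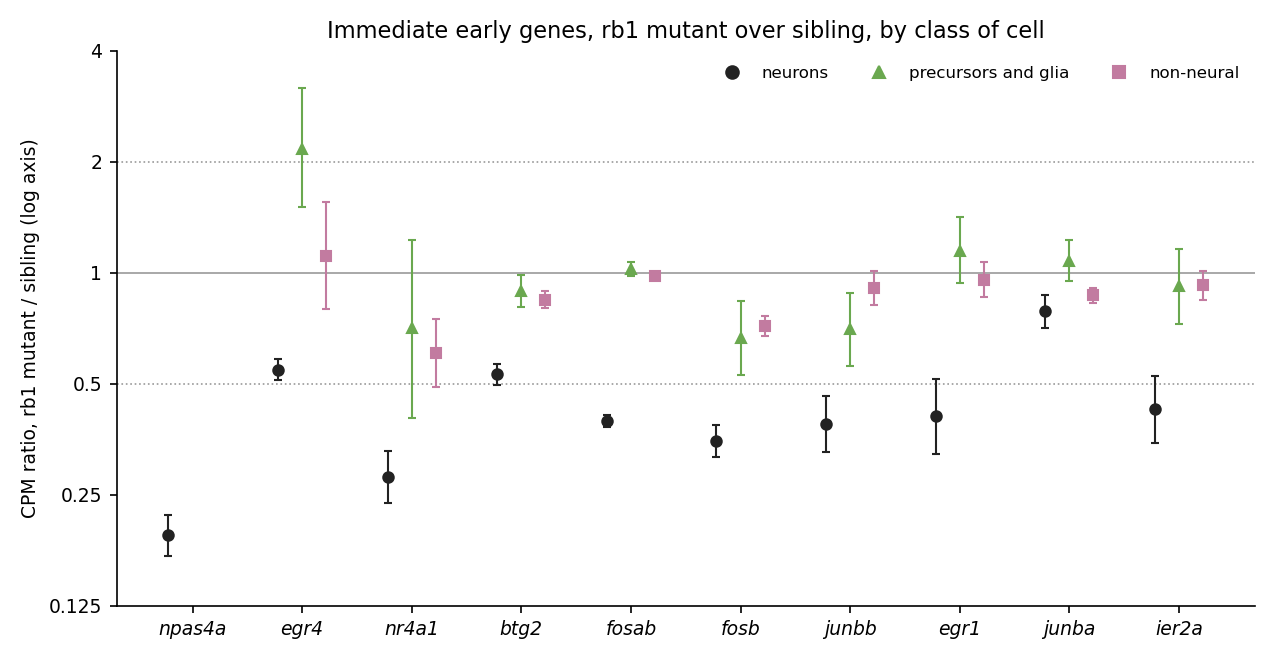
Ratio of CPM, rb1 mutant over sibling (log axis), of each immediate early gene in neurons (circles), precursors and glia (triangles) and non-neural types (squares), with exact conditional binomial 95% intervals. The solid line is 1 and dotted lines are 0.5 and 2. Points with under 50 UMIs over both libraries are left out. All circles lie under 1, between 0.194 and 0.786, and *egr4* in precursors and glia lies at 2.17.

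The lower values were spread over the neuronal types. Among genes with at least 20 UMIs in a type, 10 of 10 were lower in mutant glutamatergic neurons, 10 of 10 in GABAergic neurons without *dlx* genes, 9 of 9 in those with *dlx* genes and 9 of 9 in sensory and motor neurons. Their median ratios in these types were 0.501, 0.367, 0.323 and 0.411, whereas those of all genes tested there were 0.879, 0.899, 0.982 and 0.943. At 0.5 or less were 5, 8, 7 and 6 of the members, against 5.97%, 7.81%, 5.32% and 3.09% of all genes. In photoreceptors 7 of 8 were lower and 3 at 0.5 or less, against 3.36% of genes, with a median ratio of 0.5598. Those 3, *egr1*, *junbb* and *nr4a1*, had under 50 UMIs. With at least 50, *fosab*, *junba*, *btg2* and *egr4* had ratios of 0.746, 0.589, 0.787 and 1.12 there, none at 0.5 or less. In bipolar cells 6 of 6 were lower and 3 at 0.5 or less, against 19.3% of genes, with a median of 0.5097. Of those 3, *fosab* had at least 50 UMIs, and *junba* and *ier2a* had fewer. Median depths there were 2188 mutant and 1338 sibling UMIs. In amacrine, retinal ganglion and other neurons 9 of 10, 6 of 6 and 10 of 10 were lower. Their median ratios were 0.4102, 0.355 and 0.482, with 8, 5 and 5 members at 0.5 or less, against 10.4%, 6.47% and 5.51%. Of the 8 in amacrine cells, *egr1*, *junbb* and *nr4a1* had under 50 UMIs. The share of all genes below 1 was not taken by type. The members not lower in a neuronal type, at that number of UMIs, were *egr4* in photoreceptors, at 58.3 and 52.2 CPM with a ratio of 1.12 (0.800–1.56), and *junba* in amacrine cells, with a ratio of 1.198 (1.02–1.41). In epidermis, with 47 mutant and 143 sibling cells, all 8 genes with 20 UMIs were higher in the mutant library, with ratios between 1.13 and 1.61. The median ratio of all genes tested in epidermis was 0.990. In mesenchyme 8 of 9 were lower, with ratios between 0.682 and 1.04, where the median of all genes was 0.966. The microglia and macrophages had *fosab* at 1948 CPM (1691–2233) in 19 mutant cells, of which 10 carried it and 1 held 71 of the 206 UMIs, and at 506 CPM (421–604) in 32 sibling cells.

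Other RNAs were also lower in mutant neurons. The 8 neuronal transcripts kept out of the gates had ratios between 0.562 and 0.814 with a median of 0.675, and the heat-shock and stress list had a median of 0.781 over 13 genes. Mutant neurons had a median of 1.15% mitochondrial UMIs, against 1.48% in sibling neurons. Neurons were therefore split by how many of the 8 neuronal transcripts they carried at 1000 UMIs, a choice made after seeing the data. Among neurons with 4 to 8 of them, 1152 mutant and 1415 sibling cells, all 10 genes were lower in the mutant and 5 were at 0.5 or less, with *npas4a* at 51.2 and 199.97 CPM. Among those with 0 or 1, *npas4a* was at 4.0 CPM from 16 UMIs in the mutant library and 2.49 CPM from 5 UMIs in that of siblings, and 8 genes were lower. In the 239 mutant and 210 sibling neurons with the forebrain gene *foxg1a*, all 10 were lower and 8 were at 0.5 or less. Shares over all genes were not taken within these splits. Over all neurons, 69.0% of genes were below 1 and 9.11% were at 0.5 or less. The splits used the 8 neuronal transcripts and *foxg1a* only, and the part of neuronal maturity, preparation and mitochondrial share in the difference was not tested.

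Other early-response genes were taken from a list of 38, of which 35 were used. Against 17.8% of all genes at 4-fold or more in neurons of both libraries, 3 of 32 with enough UMIs met the definition for neuron-restricted genes. These were *bdnf*, a neurotrophin, with 16.1 and 1.61 CPM in neurons and non-neural cells of the mutant library and 36.2 and 1.94 CPM in the sibling library, *homer1b*, a scaffold of synapses, with ratios of 52.1 and 30.6, and *nr4a2a*, a nuclear receptor, with 160 and 159 UMIs in neurons against 1 and 0 in non-neural cells. Another 9 were at 0.5 or less in neurons over non-neural types in both libraries, against 18.3% of all genes. Among them were *jun*, at 354 and 1721 CPM in neurons and non-neural cells of the mutant and 620 and 1911 CPM in those of the sibling library, and *socs3a*, an inhibitor of cytokine signalling, with ratios of 0.0187 and 0.0231. A further 19 were broad, among them *atf3* and *ier5*, and the share of all genes that were broad was not taken. In mutant neurons 29 of 31 testable genes were lower than in sibling neurons and 14 were at 0.5 or less, with a median ratio of 0.544. Over all genes, 69.0% were lower and 9.11% were at 0.5 or less, with a median ratio of 0.850. The exceptions were *dusp1*, a phosphatase of MAP kinases, at 23.8 and 11.4 CPM with a ratio of 2.08 (1.69–2.58), and *ccn1*, at 3.19 and 1.71 CPM with a ratio of 1.86 (1.07–3.38). *atf3* was at 158 and 159 CPM.

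Factors that act on early promoters were measured on the same scale. Of 10 listed, 6 could be compared between the genotypes in neurons. *creb1a* and *creb1b*, which encode CREB, were at 204 and 99.2 CPM in mutant neurons and at 164 and 76.1 CPM in sibling neurons, ratios of 1.24 (1.17–1.32) and 1.30 (1.196–1.42). *mef2aa* and *mef2d* were lower, with ratios of 0.526 (0.460–0.601) and 0.676 (0.625–0.731). The SRF genes *srfa* and *srfb* had at most 11 UMIs in the neurons of either library and could not be compared.

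The genes whose pattern over types was most like that of each member were taken from 11137 candidates by the correlation of log2(CPM + 10) over 17 types in each library, that is 34 points. For *npas4a* the nearest were *slc12a5a*, a potassium-chloride cotransporter of neurons, and *si:dkey-33c12.3*, with r = 0.97 and 0.96. For *egr4* they were *upf3a*, a factor of mRNA surveillance, and *si:ch211-208k15.1*, with r = 0.96 and 0.95. Those nearest to *fosb* were *ier2b* and the AP-1 gene *jund* (r = 0.90 and 0.87), and those nearest to *ier2a* were *jdp2b* and *cavin2b* (r = 0.92 and 0.87). *btg2* was nearest to *ier2b* and *jdp2b* (r = 0.80 and 0.78), and *junbb* to *jdp2b* (r = 0.85). *fosab* was nearest to *spry4*, an inhibitor of receptor tyrosine kinase signalling, and *anxa3b*, both with r = 0.85. *nr4a1* was nearest to *gadd45ba* and *atp1b1b*, also both with r = 0.85, *egr1* to *sdr16c5a* (r = 0.85) and *junba* to *GCA* and *atp1b1a* (r = 0.87 and 0.83). Among the members, *npas4a* was nearer to *egr4* (r = 0.86) and *nr4a1* (r = 0.75) than to *fosab* (r = 0.25), while *btg2*, *junbb*, *fosab* and *ier2a* correlated with each other at 0.76 to 0.87. The most negative value between 2 members was that of *egr4* and *junba*, with r = −0.49.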

How the data were processed

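Single-cell RNA sequencing of 3′ ends was done in 2 libraries, 1 per genotype. The deposited values are whole UMI counts of each gene in each barcode, not normalized by the authors. Per the submitters' processing notes Cell Ranger 5.1.0, Seurat 3.1.1 and GRCz11 were used, while the matrix headers name Cell Ranger 5.0.0. The dense copies were not used.

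Kept were barcodes with at least 200 and at most 3000 genes, fewer than 20000 UMIs and a mitochondrial share below 15%. In place of the study's DoubletFinder, the 7.5% with the highest Scrublet score (scanpy 1.11.5, Python 3.11.15) were removed, 638 mutant and 611 sibling barcodes, which left 31925931 mutant and 28846705 sibling UMIs. A type needed UMIs of at least 3 of its markers (2 for GABAergic and *dlx* genes and 1 for glutamatergic neurons, within pan-neuronal cells). A cell gated as photoreceptor or bipolar that also had 3 non-neural markers was mixed, and ties between retinal types went to other neurons. Identifiers with the same symbol were summed, and a gene was compared where it had at least 50 UMIs. Neuron-restricted meant at least 4-fold higher in neurons of both libraries, with no non-neural type of at least 30 cells at 0.5 of the neuronal CPM in both. Broad meant neither this nor at most 0.5 in neurons of both, with UMIs in at least 0.5 of those non-neural types. The limit beside 0 UMIs is that of 3 counts. The code was tested on simulated data.

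The members and lists were chosen with earlier results of these data known. Named were all members, for each the nearest genes by pattern, and examples of each list. Some of the nearest genes are not reported here. Markers *isl1a*, *bfsp1* and *mlana* and listed genes *arca*, *npas4b* and *junda* were not used here. Alternatives changed the limits, the doublet removal, the number of gate markers, the depth per cell, the weighting of types and the scaling.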

Additional observations from a re-analysis of the deposited data

Results flagged for a closer look

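For *nr4a1* the ratio of neurons to non-neural types lay on opposite sides of 1 in the 2 libraries, at 0.845 in the mutant library and 1.83 in that of siblings. Over 10 alternatives it ranged between 0.465 and 1.03 in the mutant library and between 0.958 and 2.52 in that of siblings, where only the setting without mesenchyme put it below 1. For *egr4* the ratio of the *rb1* mutant to the sibling library was 0.546 in neurons and 2.17 in precursors and glia, where the 8 neuronal transcripts kept out of the gates had a median ratio of 1.47, and their part in it was not tested. For *junba* it was 0.786 in neurons and 1.198 in amacrine cells, which are part of those neurons. They held 391 of the 752 mutant and 233 of the 753 sibling *junba* UMIs in neurons. With 1 library per genotype these differences were not tested.

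The barcodes over the upper limits of genes or UMIs entered no comparison except the alternative without upper limits. The members' UMIs there summed to 2265 CPM (2237–2293) in 245 mutant barcodes and 2482 CPM (2458–2506) in 341 sibling barcodes. *fosab* made up 1184 and 1179 CPM of this, and *npas4a* 4.01 and 4.12 CPM.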

How the results depend on the processing

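The alternatives left *npas4a* and *egr4* as the members higher in neurons, 0 members past 2-fold between genotypes in non-neural cells, and all 10 below 1 in mutant neurons, where 5 to 7 were at 0.5 or less (5 among neurons with 4 to 8 neuronal transcripts, and 6, without *ier2a*, with thinning or median scaling). The number higher in non-neural types was 3 (*egr1*, *junba* and *ier2a*) with types weighted equally, and also 3 without mesenchyme, a choice made after seeing the data, against 5 as reported. It was also 3 among neurons with 4 to 8 neuronal transcripts. It was 6 with 2 markers per gate, which adds *fosab*, and 7 with thinning or with scaling by the median of gene ratios, which adds *fosab* and *btg2*. The *egr4* ratio of neurons to non-neural types ranged between 7.18 and 19.7 in the mutant library (11.0 as reported) and between 13.96 and 51.0 in that of siblings (22.5 as reported). Scaling by the median divides out medians of 1.54 and 1.61 between classes, and 0.850 and 0.970 between genotypes. The share with 3 or more members depends on depth by construction. Without thinning it was 11.2% of mutant and 23.6% of sibling neurons and 64.3% and 68.0% of non-neural cells, and at 2000 UMIs it was 6.43%, 20.6%, 38.4% and 45.4%. With 4 markers per gate it was 4.54% of mutant and 12.4% of sibling neurons. Over the single ratios, 250 of 368 alternative values stayed within the reported interval, 118 left it and 0 changed side after being past 2-fold. No paired analysis was possible because each genotype has 1 library, and none could be left out. Types with under 50 cells and counts under about 20 UMIs limit what can be read.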
